A study of Homo sapiens with 17 samples.

Results

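C2H2 zinc finger genes outside chromosome 19 were followed in HEK-293T cells, a transformed human embryonic kidney line, after a short exposure to a low dose of emetine, a drug that binds the small ribosomal subunit and blocks translation elongation. The set comprised every gene of the 1 h table whose symbol is ZNF, a number and at most 1 further letter and whose reads were placed on a chromosome other than 19, X and Y, without ZNF598, a ubiquitin ligase that senses collided ribosomes. This gave 243 of the 19222 genes of the table, and 237 genes with the same symbol pattern lie on chromosome 19. Cells with unmodified genotype received 500 µM s4U (4-thiouridine, a uridine analog taken up into new RNA) for 1 h, either alone (3 untreated libraries) or together with 1.8 µM emetine (3 libraries). In addition, 1 untreated and 1 emetine library (1.8 µM) were made at 1 h without s4U. A separate 2 h experiment with 250 µM s4U held 3 untreated libraries, 3 with 1.8 µM and 3 with 240 µM emetine. All libraries came from this 1 cell line, and no source says that the replicates of a group were separate cultures, so p-values describe the spread between these libraries.

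C2H2 zinc finger proteins bind DNA, and some of them RNA, through repeated fingers in which a pair of cysteines and a pair of histidines hold a zinc ion. Many carry a KRAB box at the amino end, which recruits TRIM28 and the histone methyltransferase SETDB1 and silences chromatin, often at transposable elements. The human family grew by local duplication, with its largest clusters on chromosome 19 and smaller ones elsewhere, and its mRNAs are known for short lives. In TimeLapse sequencing (TL-seq), s4U in new RNA is recoded and read as T-to-C conversions, so that the share of a gene's reads made during the label, the fraction new, can be estimated. When a transcript is at steady state, a larger fraction new after a fixed label time corresponds to a shorter half-life.

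Of the 243 genes, 242 were matched to GENCODE 44 on hg38 and 232 had a coding sequence there. Their proteins held a median of 9 C2H2 motifs and at most 36, in ZNF142. No motif was found in 9 of them, among them ZNF703 and ZNF503, related corepressors of the NET family. A KRAB-like motif was found in 79, and divergent boxes are missed by such a search. Neighbours less than 1 Mb apart formed 23 clusters of 3 or more, which held 120 of the genes. The largest clusters had 12 genes each, at chr7:149069641-150398630 and chr16:30378106-31917357. Reads that could belong to more than 1 gene were kept apart by the authors, and 6 of the genes shared any such reads. Only in ZNF695 did they exceed 10% of the gene's own reads. Recent paralogs can still exchange reads through mapping, so values of near-identical copies are uncertain.

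The repeat that gives the family its name is shown for 4 members. Each stretch runs from the first cysteine codon of 1 motif to the last histidine codon of the next, lies in 1 coding exon, and was read from hg38. Capitals mark the in-frame cysteine codons (TGT or TGC) and histidine codons (CAT or CAC). ZNF184 (chr6:27452659-27452805, minus strand), ZNF79 (chr9:127444283-127444429, plus strand) and ZNF775 (chr7:150396806-150396952, plus strand) are shown because they rose in level and fell in fraction new. ZNF717 (chr3:75738540-75738686, minus strand) is shown as a gene with at least 10 motifs whose fraction new changed little and was not called. The choice did not cover all genes with that many motifs.
ZNF184: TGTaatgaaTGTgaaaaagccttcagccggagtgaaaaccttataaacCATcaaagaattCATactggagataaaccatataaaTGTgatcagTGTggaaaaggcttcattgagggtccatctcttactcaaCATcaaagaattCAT
ZNF79: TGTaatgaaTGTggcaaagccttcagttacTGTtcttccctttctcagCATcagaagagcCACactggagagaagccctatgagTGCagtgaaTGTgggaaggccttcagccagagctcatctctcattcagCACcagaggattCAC
ZNF775: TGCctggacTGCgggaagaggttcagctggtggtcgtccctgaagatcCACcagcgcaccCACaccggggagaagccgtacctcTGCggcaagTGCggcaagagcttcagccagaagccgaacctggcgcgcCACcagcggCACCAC
ZNF717: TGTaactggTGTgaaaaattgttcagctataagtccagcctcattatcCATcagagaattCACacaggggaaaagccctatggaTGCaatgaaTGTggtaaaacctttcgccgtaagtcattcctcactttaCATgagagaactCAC
The ZNF184 stretch used only TGT and CAT for its cysteines and histidines, and G or C filled the third position of 20.4% of its codons. ZNF775 used only TGC and CAC, and the third position of its codons was G or C in 100% of cases. The pair shared 51.7% of their 147 aligned bases, whereas ZNF184 and ZNF79 shared 66.7%. In these stretches the same finger layout was therefore written in widely different codons in genes with the same pair of calls. The genes shown for their calls were picked by hand from the 18 with both calls, with 1 stretch from each.

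In untreated cells these ZNF transcripts turned over quickly. For the 171 genes that reached 100 reads in every one of the 6 labeled libraries, the median fraction new was 32.7% after 1 h, against 12.2% over all 10763 genes measured in the same way. The median over these genes was 25.4%, 33.8% and 37.9% in untreated replicates 1, 2 and 3, so replicate 1 lay lowest, as it did over all genes (9.26%, 12.3% and 14.7%). Expressed as half-lives, the median was 1.77 h with quartiles of 1.01 and 2.94 h, and the median of all genes was 5.65 h. A half-life under 1 h was found for 43 of the 171 (25.1%), compared with 4.62% of all genes. The ZNF genes of chromosome 19 had a median of 1.06 h. The conversions themselves, read without a model, showed the same order: in the untreated libraries 2.89% ± 0.332 (SD, n = 3) of T positions in reads of these genes were converted, compared with 0.919% ± 0.127 in reads of genes outside both ZNF sets. Without s4U, 0.0468% of the T positions of these genes were converted in the untreated library and 0.0506% in the emetine library.

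**Figure D1:**
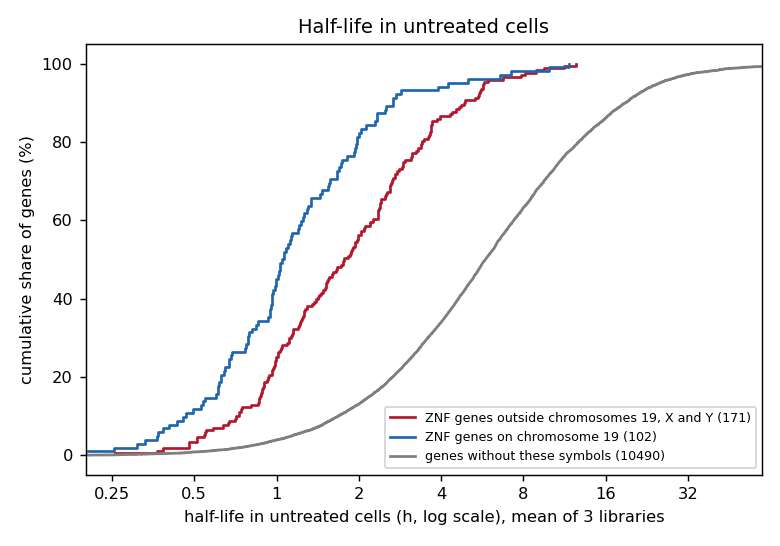
Cumulative share of genes (vertical axis, %) by half-life in untreated cells (horizontal axis, h, log scale, mean of 3 libraries) for the 171 ZNF genes off chromosome 19, the 102 on chromosome 19 and all other genes measured. The curve of the 171 genes, with a median of 1.77 h, lies between that of chromosome 19 (1.06 h) and that of the other genes.

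The shortest half-lives belonged to ZNF367 (0.257 h ± 0.0113, SD, n = 3), ZNF280B (0.366 h ± 0.00482), ZNF16 (0.384 h ± 0.0927), ZNF764 (0.477 h ± 0.128) and ZNF12 (0.477 h ± 0.0808). The last of these do not differ from one another beyond their spread. For ZNF367, fraction new was 92.3%, 93.8% and 93.6% in the untreated libraries, near the top of the scale, where the half-life depends strongly on the rates of the mixture model. At the other end stood ZNF664 (12.4 h ± 5.41), ZNF385A (11.3 h ± 3.40), ZNF511 (9.56 h ± 0.795), ZNF706 (8.87 h ± 2.83) and ZNF76 (8.09 h ± 1.56), and the spread within these genes was as wide as the distance between them. ZNF385A encodes an RNA-binding regulator of p53 responses. Fraction new of ZNF664 was 3.66%, 6.60% and 7.81%, which left few labeled reads to separate long half-lives.

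The most abundant of the genes in untreated cells were ZNF703 with 434 CPM ± 39.5 (read counts scaled to library size, SD, n = 3), ZNF207 with 386 ± 9.28, ZNF664 with 182 ± 11.6, ZNF768 with 167 ± 17.8 and ZNF24 with 161 ± 3.88. ZNF207 encodes BuGZ, a spindle assembly factor, and ZNF703 a corepressor amplified in luminal breast cancer. Per kilobase of transcript, the levels were 131 CPM for ZNF703, 28.1 for ZNF207, 42.2 for ZNF664, 72.8 for ZNF768 and 25.7 for ZNF24, so the order changed with length. Most of the genes were far lower, with a median of 14.4 CPM among the 220 tested and 25.7 CPM over all genes tested. The remaining 23 had 100 counts or fewer over the 6 libraries and were not tested.

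Emetine raised the level of 36 of the 220 genes tested and lowered none (edgeR, adjusted p under 0.05). Over all 13776 genes, 2.64% were raised and 0.0436% lowered. The log2 fold change was above 0 for 199 of the 220, and for 54% of all genes, with a median of 0.41 and a range of −0.40 to 1.34, and the median of all genes was 0.03. At an unadjusted p under 0.05, 124 were higher and 3 lower with edgeR, compared with 14.9% and 6.95% of all genes. DESeq2 called 77 of 213 raised and 0 lowered, and 6.59% and 1.25% of all genes it gave a p-value for. In 140 of the 220 all 3 emetine libraries lay above all 3 untreated libraries, as they did in 19.5% of all genes tested. In bulk RNA of this kind, a change in RNA per cell and a change in the number of cells that carry it cannot be told apart.

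The number of level calls depended heavily on single libraries. It was 0, 0 and 1 without untreated replicate 1, 2 and 3, it was 15 and 23 without emetine replicate 1 and 2, and it was 100 without emetine replicate 3. The share of all genes called raised moved with it, to 0.0294%, 0.0369% and 0.132% without untreated replicate 1, 2 and 3, to 0.977% and 1.77% without emetine replicate 1 and 2, and to 10.1% without emetine replicate 3. No gene of the set was called lowered in any of these fits, in which, in the same order, 0%, 0%, 0.00734%, 0.0148%, 0.0519% and 3.87% of all genes were. The median log2 fold change of the set stayed between 0.30 and 0.45. Emetine replicate 3 stood apart from its group. Over 12846 genes its deviation from the emetine mean had a Spearman correlation of 0.72 with transcript length, and −0.63 was found in both other replicates. Because all share 1 mean, a trend in 1 library brings an opposite trend in the others. Whether replicates 1 and 2 had a length trend of their own was not tested. These ZNF transcripts were somewhat long, with a median of 3658 bases compared with 3294 for all tested genes. Removing the trends with length and GC content left a median of 0.34 and 77 raised genes, which included all 36, and raised 6.93% of all genes and lowered 1.39%.

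Scaling to the spike-in reads moved the median of all genes up by 0.68, to 0.71, and that of the ZNF genes to 1.10, which is 0.39 above all genes. Spike-in reads made up 0.304%, 0.666% and 0.408% of the reads in emetine replicates 1, 2 and 3. They made up 0.667%, 0.480% and 0.728% in untreated replicates 1, 2 and 3, so the groups overlapped, and the shift of all genes was not tested. On that scale 4 of the ZNF genes and 0.436% of all genes were called raised, and 0 were lowered.

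The largest changes in level with the smallest p-values covered genes of low and high expression. ZNF503, a developmental corepressor on chromosome 10, read 128, 118 and 126 CPM in untreated cells and 289, 212 and 318 CPM with emetine. All 3 emetine values were higher, with emetine replicate 2 the lowest of them, and the log2 fold change was 1.14 ± 0.144 (SE, edgeR adjusted p = 0.00863). ZNF250 read 3.37, 3.38 and 4.06 CPM in untreated cells and 8.68, 9.41 and 9.23 CPM with emetine. Its log2 fold change of 1.34 ± 0.149 (adjusted p = 0.00584) was the largest of the raised genes and its libraries were tight within each group.

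ZNF184, a 19-motif gene next to the histone genes of chromosome 6, read 7.71, 9.08 and 7.32 CPM in untreated cells and 15.4, 16.1 and 20 CPM with emetine, a log2 fold change of 1.09 ± 0.151 (adjusted p = 0.0115). ZNF79 on chromosome 9 read 4.45, 6.27 and 6.42 CPM in untreated cells and 12.5, 11.9 and 15.4 CPM with emetine, a log2 fold change of 1.21 ± 0.181 (adjusted p = 0.0148). In both genes emetine replicate 3 was the highest library and the groups did not overlap. ZNF202, which encodes a SCAN-domain repressor of lipid metabolism genes, read 20.5, 19.9 and 20.4 CPM in untreated cells and 33.4, 34.7 and 33.5 CPM with emetine. Its log2 fold change was smaller, at 0.74, but with a lower standard error than those of the genes above (0.0903, adjusted p = 0.00847).

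Further genes among the 8 with the smallest p-values were ZNF485 (log2 fold change 0.97), ZNF398 (0.72) and ZNF670 (1.05). ZNF703, the most abundant member, read 425, 401 and 478 CPM in untreated cells and 702, 649 and 582 CPM with emetine, a log2 fold change of 0.57 ± 0.113 (adjusted p = 0.0371). Each of the 36 raised genes lost its call in at least 1 of the fits that left out 1 library, and in none of the named ones did the direction change.

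At the lower end the values were small and none passed the test. ZNF511 had a log2 fold change of −0.33 (adjusted p = 0.204), ZNF32 of −0.31 (adjusted p = 0.201), ZNF706 of −0.29 (adjusted p = 0.215) and ZNF385A of −0.26 (adjusted p = 0.240). ZNF207 read 375, 389 and 393 CPM in untreated cells and 345, 355 and 355 CPM with emetine, a log2 fold change of −0.13 (adjusted p = 0.354). Of these, ZNF511, ZNF706 and ZNF385A were also among the longest-lived members.

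Fraction new fell in 56 of the 171 genes tested and rose in none (limma, adjusted p under 0.05). Over all 10763 genes it was lower in 4.83% and higher in 0.214%. The change in its logit (natural log of the odds of a read being new) was below 0 in 163 of the 171, and in 75.6% of all genes, with a median of −0.51 and a range of −1.69 to 0.21, compared with a median of −0.16 over all genes. At an unadjusted p under 0.05, 102 were lower and 0 higher, compared with 15.4% and 1.15% of all genes. The median fraction new of the genes was 22.9%, 23.5% and 22.7% in the emetine libraries, below each of the untreated values. In 99 of the 171 every emetine library lay below every untreated one, as it did in 16.8% of all genes. The directly read conversions followed: 25.1% ± 3.43 (SD, n = 3) of reads of these genes had 2 or more conversions in untreated cells and 18.1% ± 1.13 with emetine, while outside both ZNF sets the shares were 7.62% ± 1.25 and 7.17% ± 0.389.

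Untreated replicate 1 had the lowest labeling of the 3 and lay nearest to the emetine libraries. Without it 125 of the 171 genes were called lower, as were 23.5% of all genes, and without untreated replicate 2 or 3 the count was 26 or 15, beside 1.73% or 0.873% of all genes. Leaving out emetine replicates 1, 2 and 3 gave 20, 23 and 26, beside 1.55%, 1.8% and 1.9% of all genes. After subtracting the all-gene median from each library, 73 were called lower and the median change was −0.39. Over all genes 6.95% were then lower and 1.17% higher, with a median of −0.03.

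**Figure D2:**
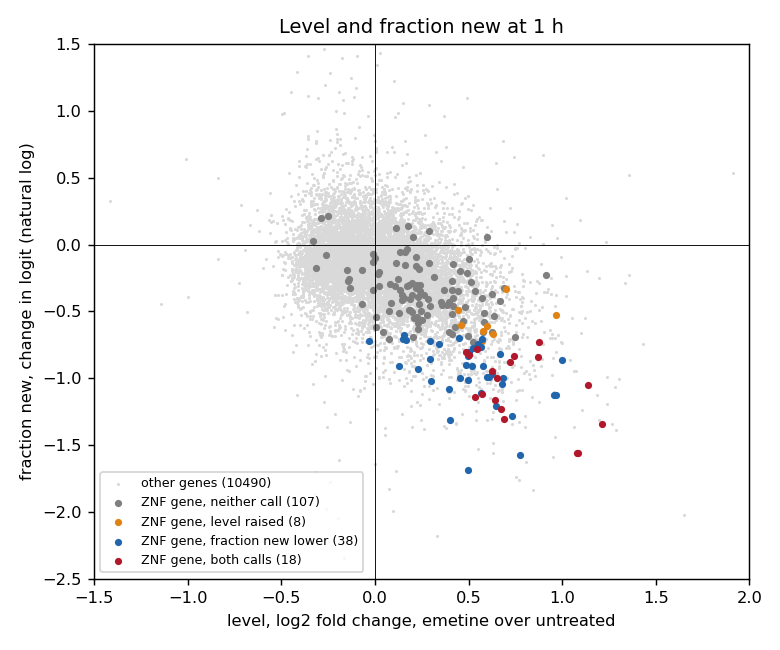
Change in level (horizontal axis, log2 fold change) and in fraction new (vertical axis, change in logit) with emetine at 1 h for the 171 ZNF genes off chromosome 19, colored by call, over all other genes measured except the ZNF genes of chromosome 19 (light gray). The 18 genes with both calls lie in the lower right quadrant.

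The smallest p-values for fraction new were those of ZNF691 and ZNF436. ZNF691, on chromosome 1, had a fraction new of 57.3%, 60.4% and 80.4% in untreated cells and 26.2%, 27.1% and 28.7% with emetine. The emetine libraries were tight and far below the untreated ones, with a change in logit of −1.69 ± 0.244 (SE, limma adjusted p = 3.38e-06). ZNF436 fell from 61.1%, 74.3% and 74.4% to 31.0%, 34.6% and 32.8%, a change of −1.58 ± 0.238 (adjusted p = 3.38e-06). Neither passed the test for level, with log2 fold changes of 0.50 (edgeR adjusted p = 0.126) and 0.78 (adjusted p = 0.0516).

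ZNF668, a 16-motif gene of the chromosome 16 cluster, had a fraction new of 47.2%, 59.5% and 70.5% in untreated cells and 28.9%, 27.9% and 27.9% with emetine (change in logit −1.32, adjusted p = 7.95e-05). ZNF189 went from a mean of 49.4% to 22.6% (change in logit −1.21, adjusted p = 0.000114). In 14 of the 56 genes the call held in every fit that left out 1 library, and ZNF691, ZNF436, ZNF668, ZNF189, ZNF184, ZNF16, ZNF79 and ZNF92 were among them.

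Both calls together, a raised level and a lower fraction new, were made for 18 genes, or 10.5% of those tested, and for 1.37% of all genes. Ordered by level change they were ZNF79, ZNF503, ZNF184, ZNF16, ZNF273, ZNF786, ZNF202, ZNF398, ZNF92, ZNF408, ZNF696, ZNF775, ZNF319, ZNF3, ZNF7, ZNF746, ZNF689 and ZNF394. This count was 0 without any 1 untreated library, 5 and 7 without emetine replicate 1 and 2, and 25 without emetine replicate 3. It was 38 when DESeq2 gave the level calls. The shares of all genes with both calls in these alternatives are not given. ZNF746 encodes PARIS, a repressor of PGC-1α that is degraded through parkin, and ZNF408 is mutated in a vascular disease of the retina. Their log2 fold changes in level were 0.53 for ZNF746 and 0.67 for ZNF408. Another 10 of the 36 raised genes had too few reads for fraction new, and the remaining 8 had changes in logit below 0 that did not pass.

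Within the 18, ZNF16 had the highest fraction new in untreated cells (75.7%, 86.5% and 88.8%) and read 54.2%, 50.6% and 54.8% with emetine (change in logit −1.56, adjusted p = 3.59e-05). For ZNF184 the values were 65.3%, 77.6% and 81.0% in untreated cells and 34.6%, 42.2% and 40.4% with emetine (change in logit −1.56, adjusted p = 9.63e-06). ZNF79 changed from 62.9%, 76.3% and 76.9% to 44.8%, 38.9% and 38.3% (change in logit −1.34, adjusted p = 0.000123). In all 3 the lowest untreated library was replicate 1 and the groups did not overlap.

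ZNF775, with the GC-rich fingers shown above, had 42.1%, 40.7% and 58.6% in untreated cells and 22.1%, 18.7% and 25% with emetine (change in logit −1.16, adjusted p = 0.000271). ZNF503 had 68.3%, 75.6% and 79.2% in untreated cells and 48.3%, 50.1% and 53.6% with emetine (change in logit −1.05, adjusted p = 0.00422). ZNF273 had the smallest change of the 18, from a mean of 39.6% ± 8.79 (SD, n = 3) to 24.2% ± 5.09 (change in logit −0.73, adjusted p = 0.0363). By contrast ZNF717, an 18-motif gene, read 15%, 22.5% and 19.1% in untreated cells and 20%, 14.9% and 17.0% with emetine, so its groups overlapped (change in logit −0.10, adjusted p = 0.890).

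**Figure D3:**
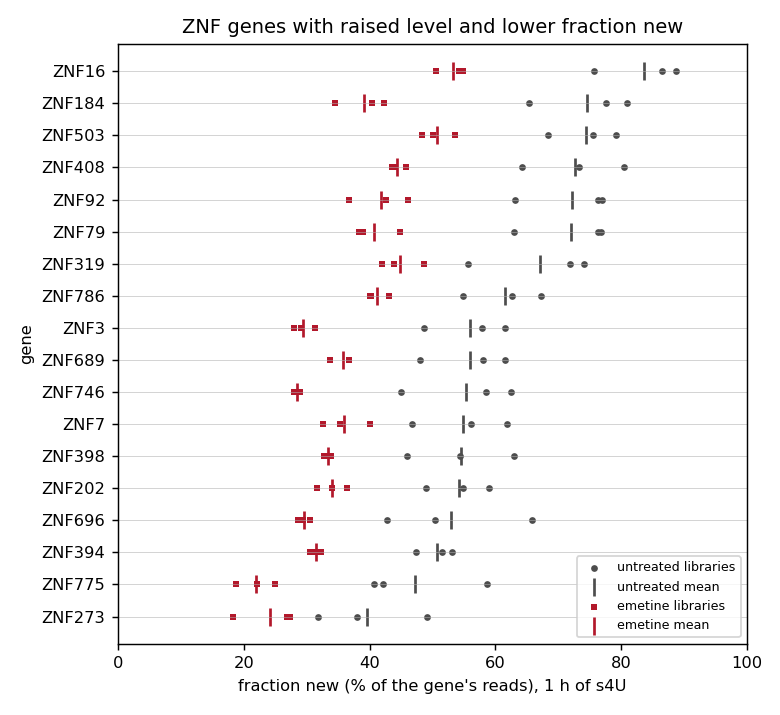
Fraction new (horizontal axis, % of a gene's reads after 1 h of s4U) in each of the 3 untreated (gray circles) and 3 emetine libraries (red squares), with vertical bars for group means, for the 18 ZNF genes with both calls, ordered by the untreated mean. The groups do not overlap in any of the 18, and 1 untreated library lies below the others in most rows.

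Not every short-lived gene was called in both measures. ZNF367, the shortest-lived of the genes, had 92.3%, 93.8% and 93.6% in untreated cells and 90.7%, 89.2% and 92.0% with emetine, and its change in logit of −0.35 had an adjusted p of 0.641. For ZNF280B, fraction new fell from 84.7%, 84.7% and 85.4% to 68.0%, 69.9% and 70.3% (change in logit −0.91, adjusted p = 0.0262), while its level of 9.39, 12.7 and 14.1 CPM in untreated cells and 11.4, 10.3 and 17.9 CPM with emetine overlapped (log2 fold change 0.13, adjusted p = 0.757). No gene was called higher in fraction new, and the largest values in that direction were 0.21 for ZNF853 (adjusted p = 0.721) and 0.20 for ZNF706 (adjusted p = 0.743).

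The level was split into labeled and unlabeled CPM, the products of CPM with the fraction new and with its remainder, so these values are not independent of those above. Unlabeled CPM rose in 75 of the 171 genes and fell in none (limma, adjusted p under 0.05), compared with 7.3% raised and 0.0929% lowered over all genes, and 2 genes were lower at an unadjusted p under 0.05, compared with 7.06% of all genes. The median log2 change was 0.54, and 0.04 over all genes. Labeled CPM passed the test in 0 genes in either direction, compared with 0.26% raised and 0.632% lowered over all genes. At an unadjusted p under 0.05, 1 was higher and 13 lower, compared with 1.64% and 10.6% of all genes. Its median change of −0.14 was that of all genes (−0.14). Without untreated replicate 1, 26 genes were called lower and 1 higher in labeled CPM, as were 16.1% and 0.595% of all genes.

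All 26 raised genes that were tested for fraction new were also raised in unlabeled CPM, with log2 changes from 0.72 to 2.40, while their labeled CPM changed by −0.40 to 0.56. ZNF16 had the largest unlabeled change, 2.40 ± 0.310 (SE, limma adjusted p = 0.00304), with a labeled change of 0.42 (adjusted p = 0.480). For ZNF184 the values were 2.13 ± 0.209 (adjusted p = 0.000952) and 0.15 (adjusted p = 0.891). ZNF503 rose by 2.07 ± 0.185 in unlabeled CPM (adjusted p = 0.000627), and its labeled change of 0.56 ± 0.20 did not pass (adjusted p = 0.159). In ZNF691 the labeled value was −0.72 ± 0.244 (adjusted p = 0.138) beside an unlabeled rise of 1.6 ± 0.285 (adjusted p = 0.0114).

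**Figure D4:**
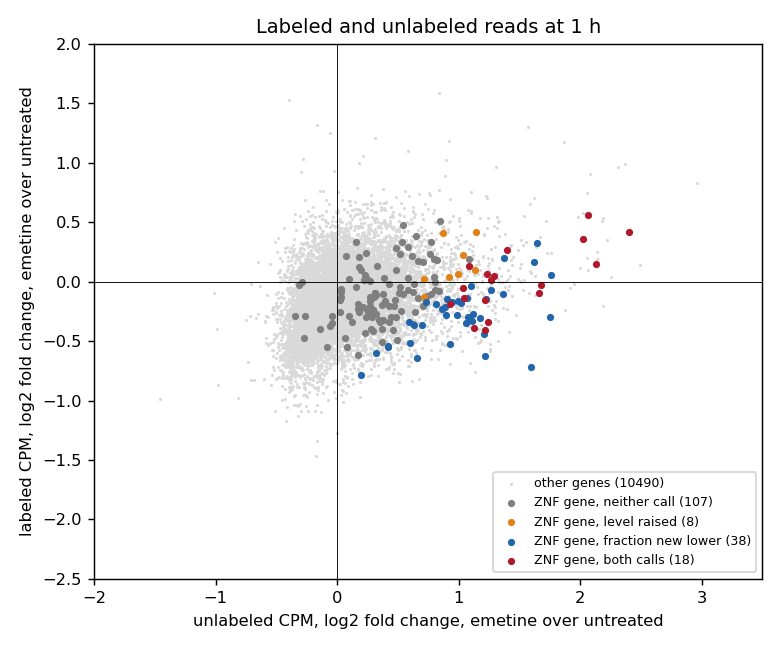
Log2 fold change with emetine at 1 h in unlabeled CPM (horizontal axis) and labeled CPM (vertical axis) for the 171 ZNF genes off chromosome 19, colored by call, over all other genes measured except the ZNF genes of chromosome 19 (light gray). The 18 genes with both calls spread far to the right, up to 2.40, and stay within −0.40 and 0.56 on the vertical axis.

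Genes were also set side by side within ranges of the mean fraction new over the 6 labeled libraries. Between 20% and 40%, fraction new was called lower in 21 of 79 of the ZNF genes (26.6%), 12 of 42 on chromosome 19 and 8.41% of 1855 genes without ZNF symbols. Between 40% and 60%, it was called lower in 28 of 40 (70.0%), 26 of 39 on chromosome 19 and 33.8% of 397 other genes, with median changes in logit of −0.87, −0.85 and −0.61. Under 20%, only 1 of 45 was called, compared with 0.840% of 8091 other genes. The median level change between 40% and 60% was 0.58, 0.66 and 0.37 in the same order. Above 60% there were only 7 of the ZNF genes, of which 6 were lower in fraction new and 2 (28.6%) raised in level. On chromosome 19, 13 of 13 in that range were lower and 12 (92.3%) raised. Of 138 other genes 37.7% were lower and 35.5% raised. Read depth was not matched in this comparison, and no test was made of it.

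The number of motifs went along with the calls. With 10 or more C2H2 motifs, 22 of 91 genes tested were raised (median log2 fold change 0.55) and 32 of 64 had a lower fraction new. With 5 to 9 motifs, 10 of 74 were raised (median 0.46) and 19 of 61 were lower. With 1 to 4 motifs, 2 of 42 were raised (median 0.19) and 4 of 38 were lower. Half-life followed the same order, with medians of 1.24 h, 1.75 h and 2.68 h, so motif number and turnover cannot be told apart here. These counts were not tested against each other. The shares over all genes were 2.64% raised and 4.83% lower, nearest to those with 1 to 4 motifs (4.76% and 10.5%). Of the genes with no motif found, 2 of 6 were raised, namely ZNF503 and ZNF703. None of the 7 tested genes without an annotated coding sequence was raised.

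Genes with a KRAB-like motif were raised in 18 of 72 cases (median 0.50) and lower in fraction new in 21 of 52, and coding genes without it in 18 of 141 (median 0.36) and 35 of 115. Those with it also had more C2H2 motifs (median 11 against 7) and shorter half-lives (median 1.52 h against 1.98 h). Their median level in untreated cells was 10.4 CPM against 18.7 CPM. These traits cannot be told apart here, and the counts were not tested against each other. For comparison, 2.64% of all genes were raised in level and 4.83% were lower in fraction new. The 56 genes called lower in fraction new had a median of 10 motifs and a median of 54.6% G or C at the third codon position, and the 115 tested but not called had 7 motifs and 50.3%. Over all motifs, TGT coded 52.1% of the first cysteines in the called genes and 59.8% in those not called, and 59.9% in the genes raised in level. The median over the coding sequences of all genes was 60.8% G or C at the third position, and 38.2% for the ZNF genes of chromosome 19.

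By position, chromosome 7 held 11 of the 36 raised genes, out of 30 tested there, and 8 of the 18 with both calls. The cluster at chr7:149069641-150398630 had 6 of its 12 genes raised, all 12 with values above 0 (median 0.43), and 4 of 9 lower in fraction new. The cluster at chr16:30378106-31917357 had 2 of 11 genes raised and 7 of 11 lower in fraction new. Unlabeled CPM was raised in 7 of 9 genes of the first and 8 of 11 of the second, and the clusters were not tested against each other. For comparison, 2.64% of all genes were raised in level, 4.83% were lower in fraction new and 7.3% were raised in unlabeled CPM. In the chromosome 10 cluster of ZNF248, ZNF25, ZNF33A and ZNF37A, 0 of 4 passed the test for level. Other clusters among the 23 also had no raised gene, such as 0 of 7 at chr16:3112560-3443504. Genes on every one of the 19 chromosomes represented had a median level change above 0, from 0.15 on chromosome 17 to 0.59 on chromosome 9.

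On chromosome 19, the nearest set for comparison, 53 of 190 were raised and 0 lowered (median 0.64), 51 of 102 were lower in fraction new (median −0.73), and 65 were raised in unlabeled CPM (median 0.91). The shares over all genes were 2.64% raised in level, 4.83% lower in fraction new and 7.3% raised in unlabeled CPM. Off chromosome 19 the medians in the same order were 0.41, −0.51 and 0.54. Both sets were measured in the same libraries, the difference between them was not tested, and the chromosome 19 genes also had more motifs (median 12) and shorter half-lives.

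A list of 26 of the genes with well-studied regulatory roles was looked at separately. Of these, 1 (3.85%) was raised in level (ZNF703) and 2 of 24 (8.33%) had a lower fraction new, with medians of 0.37 and −0.45. The shares called were 2.64% and 4.83% over all genes, and 16.4% and 32.7% over the whole ZNF set. The 2 genes lower in fraction new were ZNF217, an oncogene of chromosome 20, and ZNF281, a regulator of pluripotency and epithelial identity. ZNF217 read 6.49, 6.53 and 6.61 CPM in untreated cells and 8.57, 10.3 and 19.7 CPM with emetine, so that emetine replicate 3 carried much of its log2 fold change of 0.97 (adjusted p = 0.121). Its fraction new fell from 67.4%, 78.3% and 84.9% to 53.7%, 47.7% and 57.8% (change in logit −1.12, adjusted p = 0.00334). ZNF281 fell from a mean fraction new of 50.6% ± 9.01 to 27.6% ± 1.55 (SD, n = 3, change in logit −0.99, adjusted p = 0.00288). ZNF622, a ribosome biogenesis factor, and ZNF346, which binds double-stranded RNA, had log2 fold changes in level of 0.14 (adjusted p = 0.398) and 0.19 (adjusted p = 0.232).

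Genes of the complexes that KRAB boxes recruit and of linked silencing pathways were listed too, and 19 were measured. Of these, 1 was raised in level, ATF7IP2 (log2 fold change 1.08, adjusted p = 0.0261), a partner of SETDB1, and 0 were lowered. Over all genes, 2.64% were raised and 0.0436% lowered. At an unadjusted p under 0.05, 5 were higher and 0 lower with edgeR, compared with 14.9% and 6.95% of all genes. None of 18 passed for fraction new (limma), where 4.83% of all genes were lower and 0.214% higher. At an unadjusted p under 0.05, 1 was lower and 0 higher with limma, compared with 15.4% and 1.15% of all genes. TRIM28, the corepressor itself, had a log2 fold change of −0.22 (adjusted p = 0.292) and a half-life of 9.57 h, and SETDB1 one of 0.23 (adjusted p = 0.170). The median half-life of these genes was 8.11 h, against 1.77 h for the zinc finger genes.

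Without s4U the level also tended upward. With 1 library per group there was no replicate check and no test. The log2 ratio of emetine over untreated was above 0 in 176 of the 220 genes, and in 6923 of all 13776. Its median was 0.26, compared with 0.00 over all genes. Of the 36 genes raised with s4U, 35 had a ratio above 0 without it, with a median of 0.61 beside 0.73 with s4U, and the exception was ZNF680 (−0.11). ZNF16 read 14.6 CPM in the untreated and 33.3 CPM in the emetine library, a log2 ratio of 1.17, and ZNF503 read 172 and 336 CPM. ZNF79 (7.94 and 16.2 CPM) and ZNF250 (6.96 and 13.5 CPM) were also well apart, while ZNF217 read 11.3 and 10.0 CPM.

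**Figure D5:**
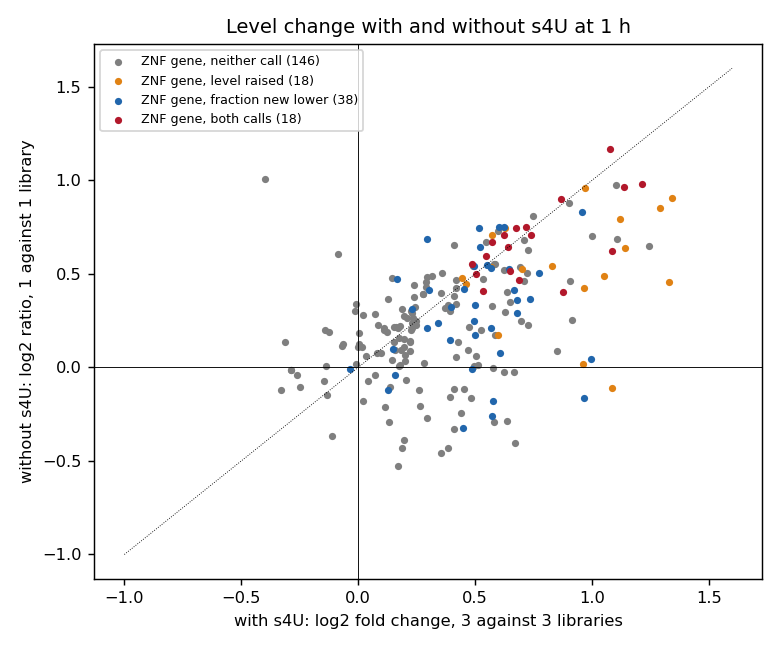
Change in level with emetine at 1 h for the 220 ZNF genes tested, with s4U (horizontal axis, log2 fold change of 3 against 3 libraries) and without (vertical axis, log2 ratio of 1 against 1 library), colored by call; the dotted line marks equal values. All 18 genes with both calls have a ratio above 0 without s4U.

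The 2 h experiment was read for the level of these genes only. Its tables list 187 of the 243 genes among 9982, including 32 of the 36 raised at 1 h and 17 of the 18 with both calls. The deposited value is the authors' mean of normalized counts over all its libraries, which cannot be split by group. The median of this mean was 598 for these genes and 845 for all genes listed. ZNF24 had the highest value of the set (9978), followed by ZNF664 (7174), and ZNF232 had the lowest (127). Libraries of the 2 h experiment were made from total RNA rather than from mRNA, so the levels are not compared with those at 1 h.

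The libraries of the 1 h experiment held 22246279 to 40018063 reads in genes. HEK-293T markers were present (VIM 618 CPM, NEFM 178 CPM and NEFL 114 CPM in untreated cells), although KRT8 (5.99 CPM) and PAX2 (1.80 CPM) were low. Of 5 markers of other cell types, PTPRC and UMOD were not listed, CDH5 and ALB had 3 and 18 reads over the 6 labeled libraries, and COL1A1 stood at 24.0 CPM. None of the HEK-293T markers passed the test for level.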

How the data were processed

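TL-seq libraries of HEK-293T cells were analysed as the deposited tables give them. For the 1 h experiment the authors trimmed reads with cutadapt, mapped them to hg38 with a HISAT aligner that allows T-to-C changes, used SAMtools, and counted T positions and conversions per read, with TruSeq stranded mRNA libraries. Their table holds raw read counts for each combination of gene, T number and conversion number, without normalization. For the 2 h tables, the signal value used here is the mean of spike-in normalized counts, made by the authors with DESeq2 over all 2 h libraries. Their other columns hold the authors' fold changes, errors and p-values and were not used, nor was the table of spike-in factors.

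Counts per gene were compared with edgeR 4.0.16 (TMM, quasi-likelihood test), 3 untreated against 3 emetine libraries, wherever a gene's counts summed to over 100. The fraction new was the weight of new reads in a 2-component binomial mixture, with the background rate from the library without s4U of the same treatment and the rate of new reads fitted per library. Its logit, bounded at 0.001 and 0.999, and log2 of labeled and unlabeled CPM plus 0.5 went into limma 3.58.1, with a mean-variance trend and robust moderation, if a gene reached 100 reads in all 6 libraries. Fold changes of labeled and unlabeled CPM are on this scale and understate those of low genes. P-values were adjusted over all genes tested by the Benjamini-Hochberg method and called under 0.05. DESeq2 1.42.0 was an alternative. The half-life is −ln(2) times 1 h over ln(1 − fraction new), at steady state. Ratios of single libraries used CPM plus 0.5. The scripts were tested on simulated data, where false calls exceeded the nominal rate, more so for fraction new than for level. Tools ran in R 4.3.3 and Python 3.11.15.

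Symbols were matched to GENCODE 44 canonical transcripts. Proteins were translated from their coding sequences to find C2H2 and KRAB-like motifs, because no protein table was at hand. Genes named in the text were the 8 of lowest p-value per direction in the fits of level and of fraction new, the 5 of highest level, the 5 of shortest and of longest half-life, and those with both calls. Other genes named were chosen after their values were seen. The genes and lists were chosen with earlier results of these data known. The libraries held 22246279 to 40018063 reads in genes, and precision of low genes is limited by these counts.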

Additional observations from a re-analysis of the deposited data

How the results depend on the processing

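No ZNF gene off chromosome 19 was called lowered in level or in unlabeled CPM, or higher in fraction new, under any setting tried. The number raised in level (36) was 77 with DESeq2, 77 with length and GC trends removed, and 62 with 8 libraries and s4U as a covariate. It was 4 after spike-in scaling, 7 with a replicate block, and 0 to 100 when 1 library was left out. The share of all genes raised (2.64%) was 6.59% with DESeq2, 6.93% with those trends removed and 4.67% with 8 libraries. It was 0.436% after spike-in scaling, and 0.0294% to 10.1% when 1 library was left out. The median log2 fold change (0.41) was 1.10 after spike-in scaling and 0.30 to 0.45 when 1 library was left out. Lower fraction new (56) fell to 22 with at least 500 reads per library, where 73 genes were tested. It ranged from 15 to 125 when 1 library was left out, where 0.873% to 23.5% of all genes were lower, beside 4.83% in the main fit. The median change in logit (−0.51) was −0.45 with at least 500 reads, −0.39 after centering, and −0.69 to −0.40 when 1 library was left out. Without robust fitting, chosen after seeing the data, 45 were lower. Raised unlabeled CPM (75) became 41 with a replicate block, 23 with at least 500 reads, and 34 to 100 when 1 library was left out. Labeled CPM gave 0 to 26 lowered and 0 to 1 raised. Both calls (18) became 38 with DESeq2, 6 with a replicate block and 0 to 25 without 1 library. Some of these settings also tested fewer genes or used fewer libraries, and the cause of the differences was not tested. Shares over all genes are not given for the replicate block, the limit of 500 reads, or the alternatives for unlabeled CPM and both calls. Whether those counts moved with all genes was not tested.

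The correlations of same-numbered deviations were weak, at 0.0892, 0.00707 and −0.137 for level and 0.056, 0.00251 and 0.0221 for fraction new. Between differently numbered libraries they ran from −0.223 to 0.125 for level and from −0.0439 to 0.0189 for fraction new. Such correlations cannot show whether libraries of the same number were made together. With the number as a replicate block, 65 genes were lower in fraction new, beside 56 in the main fit, and 7 were raised in level, beside 36. Of 307 values for 22 named genes called raised, 117 lost the call, as did 64 of 309 for 25 called lower in fraction new, and 0 reversed. Low reads limited fraction new to 171 of the 243 genes.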
